A study of Mus musculus with 2 samples.

Results

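The 27 genes described here make cholesterol or set how much of it a cell makes, moves and stores: 18 enzymes of its synthesis, 5 genes of the SREBP control system, and 4 genes of sterol transport and esterification. They were chosen by gene symbol among the 32285 genes of the deposited tables, and each symbol matched 1 gene. No measured value served as a criterion, but the choice was made with earlier results of these data known. Single-cell RNA was counted from the 5′ end of transcripts in hippocampi of untreated 4-week-old mice, in 1 wild-type library and 1 library of Crlf3-mutant mice, which carry the missense change L389P in the Crlf3 gene. A library came from 4 hippocampi run together. These are taken here as those of 2 mice because the labels also list 2 midbrains per genotype. No label ties a cell to an animal, though sex-linked transcripts show the sex of some cells. The study's title concerns neuronal deficits. The questions put to the data were which cell classes of the hippocampus held the transcripts of the cholesterol pathway, which steps differed between classes, and whether the levels differed between the genotypes.

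Cholesterol is built from acetyl-CoA through HMG-CoA, mevalonate, farnesyl diphosphate, squalene and lanosterol, and the last steps turn lanosterol into cholesterol. When sterols in the endoplasmic reticulum fall, SCAP carries the SREBP transcription factors to the Golgi for cleavage, and the released factors switch on the genes of the pathway; INSIG proteins hold SCAP back when sterols are plentiful. The blood-brain barrier keeps plasma cholesterol out, so the brain makes its own, and astrocytes are known as major producers that pass cholesterol to neurons in lipoprotein particles.

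After filtering and doublet removal, the wild-type library held 7109 cells (49080615 UMIs) and the mutant library 5275 cells (41742828 UMIs), with medians of 6193 and 7385 UMIs per cell. A UMI marks 1 captured transcript molecule. Each cell was put in a class by its own marker genes, none of them a member of the cholesterol set, and the names used here are shorthand for these marker-gated, astrocyte-like or microglia-like, cells. The 6 main classes held, in the wild-type and the mutant library, 779 and 492 astrocytes, 152 and 199 cells of the neuron lineage, 367 and 123 choroid plexus cells, 123 and 160 mural cells, 818 and 806 endothelial cells, and 4473 and 3278 microglia. In the class sums of astrocytes all 10 astrocyte markers were detected, at 28804 and 28323 CPM together. They summed to 585 and 555 CPM in the neuron lineage and to 857 and 779 CPM in endothelial cells, the highest of the other main classes. The 9 microglial markers summed to 142 and 132 CPM in astrocytes. The neuron lineage was made of neuroblasts (120 and 158 cells) and cycling neural progenitors (32 and 41 cells), and only 4 cells of both libraries together were gated as mature neurons and 0 as oligodendrocytes. The sequencing libraries shared 64 cell barcodes. Crlf3 itself stood at 101 and 105 CPM over all cells, and since the counts give no allele, this does not check the genotype. The design has 1 library per genotype, so no difference was tested and no p-value is given. Every interval is a 95% interval of counting error only and leaves out differences between animals, dissociations and sorts. Intervals of UMI levels and ratios also leave out differences between cells. They are therefore narrower than the spread between cells would make them.

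The transcripts of the 18 synthesis enzymes were concentrated in astrocytes. Their summed level, in CPM (UMIs of the genes per 1000000 UMIs of the class), was 3664 CPM (interval 3610 to 3719) in wild-type and 3653 CPM (3592 to 3715) in mutant astrocytes. The sum covers these 18 enzymes and not every enzyme of the pathway. The neuron lineage followed with 1195 CPM (1138 to 1254) and 1346 CPM (1299 to 1394), and choroid plexus cells with 650 CPM (626 to 673) and 711 CPM (674 to 750). Mural cells, which wrap small vessels, stood at 388 CPM (332 to 450) and 447 CPM (398 to 500) and endothelial cells at 394 CPM (375 to 414) and 382 CPM (364 to 400). Microglia were lowest, with 221 CPM (216 to 226) and 217 CPM (211 to 223). As the mean of both libraries, astrocytes stood 16.7 times above microglia, the neuron lineage 5.80 times, choroid plexus cells 3.11 times, mural cells 1.91 times and endothelial cells 1.77 times. The order of the first 3 classes and of microglia was the same in both libraries with intervals that did not overlap, whereas those of mural and endothelial cells overlapped in both libraries and the order of these classes differed between the libraries. A single transcript, Ttr, took 242694 CPM of the wild-type and 224357 CPM of the mutant choroid plexus UMIs. With Ttr left out of the totals, the choroid plexus stood 4.05 times above microglia, still below the neuron lineage.

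**Figure D1:**
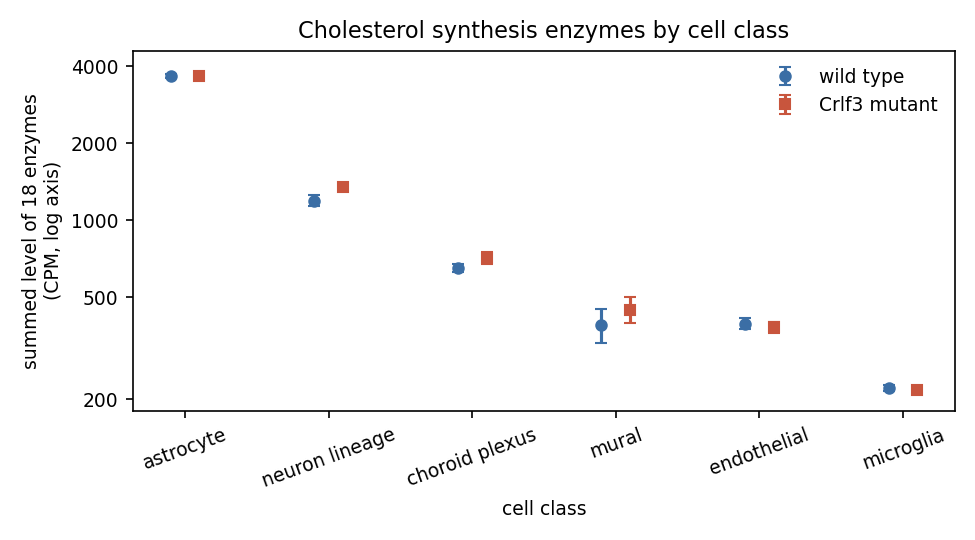
Summed CPM of the 18 cholesterol synthesis enzymes (log axis) in 6 cell classes of the wild-type library (circles) and the Crlf3-mutant library (squares), with 95% counting intervals. Astrocytes stand at 3664 and 3653 CPM, above the neuron lineage at 1195 and 1346 CPM, and microglia are lowest at 221 and 217 CPM.

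Of all UMIs, 9.62% (wild type) and 8.91% (mutant) lay in astrocytes, but these cells had 52.0% and 49.6% of the UMIs of the synthesis enzymes. Microglia held 61.2% and 63.2% of all UMIs, and 19.9% and 20.9% of the enzyme UMIs. In single cells the difference was broad and not carried by a few cells. The median astrocyte had 3469 and 3487 CPM of enzyme transcripts in the 2 libraries, with 1578 and 1568 CPM at the 10th percentile of cells. The 90th percentile of microglia was 492 and 456 CPM, below that 10th percentile.

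The share of cells with at least 1 enzyme UMI gave the same order as the sums for all classes but the overlapping neighbours. After thinning every cell to 2000 UMIs, it was 98.8% (interval 97.7 to 99.4) and 98.3% (96.7 to 99.3) in astrocytes, and 80.8% and 82.9% in the neuron lineage. In choroid plexus cells the thinned share was 70.8% and 71.3%, in mural cells 63.0% and 51.8%, in endothelial cells 50.7% and 50.6%, and in microglia 35.7% (34.2 to 37.1) and 34.5% (32.8 to 36.1). Without thinning, the shares were 99.5% and 99.8% in astrocytes and 73.2% and 76.9% in microglia, at median depths of 5974 and 7521.5 UMIs in astrocytes and 6355 and 7750.5 UMIs in microglia. Thinning left out 36 wild-type and 20 mutant astrocytes and 68 and 38 microglia that were shallower. A thinned astrocyte held a mean of 7.42 and 7.23 enzyme UMIs, and a thinned microglial cell 0.439 and 0.427. Free RNA can put single UMIs into cells that do not express a gene. For Sqle, the member with the widest range, thinned shares were 35.9% and 32.8% of astrocytes against 0.318% and 0.432% of microglia. Such background was thus low for this gene, which does not speak for the others. Ttr, the choroid plexus transcript, stood at 363 and 33.6 CPM in astrocytes and at 150 and 29.6 CPM in microglia. Its level outside its own class was thus higher in the wild-type library. The part of free RNA in the genotype ratios was not tested.

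Among the 27 genes, astrocytes were the highest of the 6 classes for 22, including 16 of the 18 enzymes, taking the mean of both libraries. Microglia were the lowest class for 16 of the 27. The same counts over all measured genes are not given here, so these counts describe the members only. The other 5 genes had their highest level elsewhere: Acat2 in the neuron lineage, Ebp and Npc2 in microglia, Stard4 in endothelial cells and Insig2 in mural cells. A gene was taken as measured in a class at 50 CPM and 30 UMIs or more in the library where it was higher. By that rule 25 genes were measured in at least 1 class, 22 of them in astrocytes, 11 in the neuron lineage, 8 in choroid plexus cells and 4 each in mural cells, endothelial cells and microglia. Lss and Hsd17b7 were below it in every class.

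Counted gene by gene at a fold of 2 in both libraries, 19 of the 23 members measured in astrocytes or microglia were higher in astrocytes, where 29% of all 4896 measured genes were. Only Npc2 was at least 2 times higher in microglia, in a comparison where 24.6% of genes were. The neuron lineage was higher than microglia for 10 of 14 measured members (34.7% of all measured genes), and choroid plexus cells for 6 of 11 (24.6%). Mural cells were higher than microglia for 2 of 7, Pmvk and Srebf2 (25.5% of all measured genes), and endothelial cells for 2 of 6, Fdps and Stard4 (23.5%), shares near those of all genes. Microglia were higher than endothelial cells for 3 of 6 members, Npc1, Npc2 and Soat1 (20.6%). Astrocytes were higher than choroid plexus cells for 19 of 23 members (33.1%), and higher than the neuron lineage for 13 of 22 (18.1%). No member was 2 times higher in the neuron lineage than in astrocytes, whereas 27.6% of all measured genes were. The neuron lineage was higher than choroid plexus cells for 5 of 13 members, where 45.8% of all measured genes were, and lower for 0 (14.6%). Choroid plexus cells were higher than endothelial cells for 2 of 10 members (18.6%) and than mural cells for 2 of 10 (14.2%). They were lower for Stard4 alone (36.2%) and for 0 (34.3%). In these last comparisons, below astrocytes, the shares of members higher in the class with the larger enzyme sum were thus near those of all genes. In the other direction they were smaller than those of all genes.

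**Figure D2:**
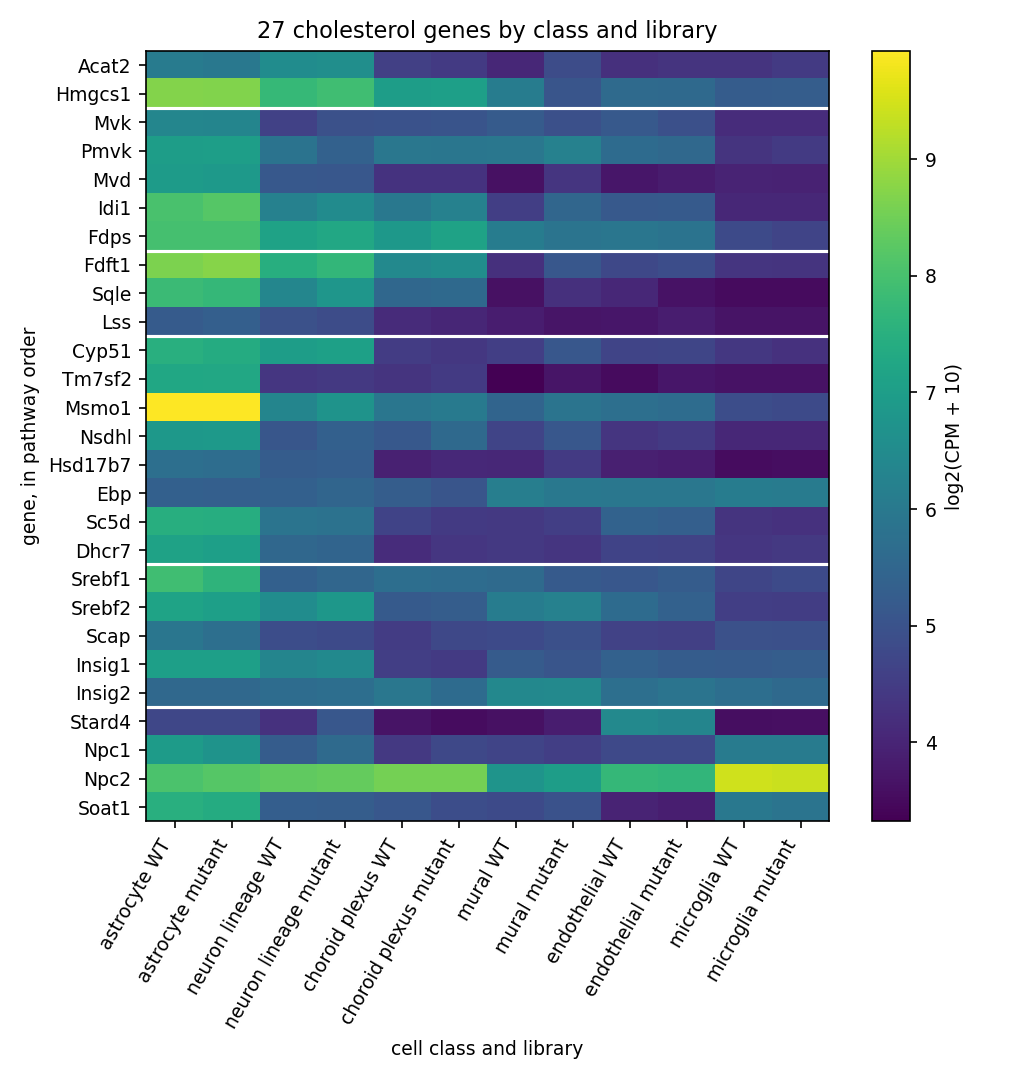
Level of each of the 27 genes as log2(CPM + 10) (colour scale) in 6 cell classes of both libraries (columns), with genes in pathway order and white lines between roles. The astrocyte columns hold the highest level for 22 genes, and Acat2, Ebp, Insig2, Stard4 and Npc2 are highest in other columns.

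The entry into the pathway was made of 2 genes with unlike patterns. Hmgcs1, the HMG-CoA synthase gene (ENSMUSG00000093930, mm10 chromosome 13, 119690379 to 119708260, plus strand), stood at 411 and 402 CPM in wild-type and mutant astrocytes, at 203 and 228 CPM in the neuron lineage and at 118 and 124 CPM in choroid plexus cells. It was 27.7 and 28.4 CPM in microglia, so the astrocyte level was 14.5 times higher in the mean of both libraries. Acat2 (chromosome 17, 12942890 to 12960747, minus strand), a cytosolic thiolase that joins acetyl-CoA units, was instead highest in the neuron lineage, at 82.9 and 86.8 CPM, against 57.6 and 53.0 CPM in astrocytes. Acat3, its neighbour and close copy in the mouse genome, had the reverse pattern, with 66.3 and 80.1 CPM in astrocytes and 7.93 and 13.1 CPM in the neuron lineage. Reads of the pair may have been split between them in counting, so the Acat2 values are uncertain.

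All 5 genes from mevalonate to farnesyl diphosphate were highest in astrocytes. Idi1 (chromosome 13, 8885501 to 8892451, plus strand), which interconverts the isoprene building blocks, stood at 254 and 280 CPM in astrocytes, 64.9 and 80.7 CPM in the neuron lineage, 53.0 and 65.5 CPM in choroid plexus cells, 13.5 and 35.2 CPM in mural cells, 26.0 and 26.9 CPM in endothelial cells, and 6.59 and 6.56 CPM in microglia. Mvd (chromosome 8, 122433601 to 122443422, minus strand), the decarboxylase of this stretch, was measured in astrocytes alone, at 115 and 107 CPM, with 25.2 and 24.9 CPM in the neuron lineage, 9.60 and 9.50 CPM in choroid plexus cells, 2.26 and 10.3 CPM in mural cells, 3.22 and 4.16 CPM in endothelial cells, and 5.79 and 5.39 CPM in microglia. The astrocyte level was 30.1 times the lowest class for Mvd and 40.6 times for Idi1, and both libraries put all other classes below astrocytes. Pmvk, 1 of the 2 kinases of this stretch, spread more evenly. It stood at 119 and 120 CPM in astrocytes and at 36.8 to 64.5 CPM in choroid plexus, mural and endothelial cells. In microglia it was at 9.86 and 11.8 CPM. Mvk, the other kinase, was at 72.2 and 71.0 CPM in astrocytes and at 7.89 to 27.1 CPM in the other classes. Fdps, which makes farnesyl diphosphate for cholesterol and for protein prenylation, was measured in 4 classes, from 244 and 241 CPM in astrocytes to 50.8 and 47.0 CPM in endothelial cells.

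Genes of squalene synthesis and oxidation stood far higher in astrocytes than in the vascular and immune classes. Sqle (chromosome 15, 59315077 to 59331192, plus strand), squalene epoxidase, a rate-limiting enzyme of the later pathway, had the widest range of the 27 genes. It stood at 219 and 201 CPM in astrocytes, 72.1 and 101 CPM in the neuron lineage, 36.0 and 37.5 CPM in choroid plexus cells, 2.26 and 8.80 CPM in mural cells, 6.69 and 2.41 CPM in endothelial cells, and 1.498 and 1.517 CPM in microglia. The last of these rested on 45 and 40 UMIs, and the mean level in astrocytes was 139 times that in microglia. Fdft1 (chromosome 14, 63145150 to 63179578, minus strand), squalene synthase, the first enzyme committed to sterols, was at 388 and 415 CPM in astrocytes, 168 and 199 CPM in the neuron lineage, 77.0 and 84.5 CPM in choroid plexus cells, 9.02 and 24.9 CPM in mural cells, 16.9 and 19.5 CPM in endothelial cells, and 10.3 and 9.75 CPM in microglia. For both genes the order astrocyte, neuron lineage, choroid plexus held in each library, with a gap down to the other 3 classes. Lss, which closes the ring to lanosterol, was low throughout, at 27.5 and 30.1 CPM in astrocytes and 2.63 and 2.69 CPM in microglia.

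The steps after lanosterol held genes with large astrocyte excess, Msmo1 and Tm7sf2, and also Ebp, which was higher in other classes. Msmo1 (chromosome 8, 64718139 to 64733792, minus strand), the methylsterol oxidase gene, stood at 966 and 963 CPM in astrocytes, from 4563 and 3581 UMIs. It was at 69.9 and 95.5 CPM in the neuron lineage, 50.8 and 56.0 CPM in choroid plexus cells, 33.8 and 48.4 CPM in mural cells, 42.9 and 40.9 CPM in endothelial cells, and 19.68 and 18.02 CPM in microglia. Tm7sf2 (chromosome 19, 6062821 to 6068373, minus strand), a sterol reductase gene, was measured in astrocytes alone, at 144 and 146 CPM, with 10.8 and 11.3 CPM in the neuron lineage, 9.82 and 11.6 CPM in choroid plexus cells, 1.49 and 3.28 CPM in endothelial cells, and 2.40 and 2.58 CPM in microglia. In mural cells it had 0 UMIs in the wild-type library, with an interval up to 8.32 CPM, and 2 UMIs in the mutant library. Thus the mean astrocyte level was 51.2 times that of the lowest class for Msmo1, while for Tm7sf2 the lowest class held too few UMIs for a firm ratio.

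Sc5d (chromosome 9, 42251595 to 42264256, minus strand), the sterol desaturase gene, stood at 167 and 164 CPM in astrocytes, 48.3 and 46.2 CPM in the neuron lineage, 15.3 and 11.6 CPM in choroid plexus cells, 11.3 and 13.2 CPM in mural cells, 32.5 and 29.8 CPM in endothelial cells, and 9.82 and 9.37 CPM in microglia. Nsdhl (chromosome X, 72918557 to 72958514, plus strand), which acts with Msmo1 in removing methyl groups, was at 104 and 109 CPM in astrocytes, 23.8 and 31.0 CPM in the neuron lineage, 25.3 and 37.5 CPM in choroid plexus cells, 15.8 and 24.9 CPM in mural cells, 10.4 and 11.6 CPM in endothelial cells, and 6.56 and 6.71 CPM in microglia. Dhcr7, whose product is cholesterol in one branch of the pathway, was at 131 and 124 CPM in astrocytes and at 7.86 to 36.0 CPM elsewhere. Cyp51, the lanosterol demethylase gene, was high in both astrocytes, at 171 and 156 CPM, and the neuron lineage, at 118 and 126 CPM, and at 9.33 to 24.9 CPM in the other classes. Hsd17b7, the ketoreductase that works with Nsdhl, stood at 43.4 and 41.1 CPM in astrocytes and at 1.70 and 1.78 CPM in microglia. Ebp (chromosome X, 8185329 to 8193512, minus strand), the sterol isomerase gene, was lower in astrocytes, at 30.9 and 30.4 CPM, than in microglia, at 58.9 and 56.8 CPM, mural cells, at 60.9 and 52.8 CPM, or endothelial cells, at 51.1 and 51.4 CPM. Its whole range over the classes was 2.22-fold.

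The balance of the steps also differed between classes. Genes after lanosterol gave 48.0% and 47.5% of the enzyme UMIs of astrocytes, 30.6% and 30.3% of those of the neuron lineage, and 23.9% and 23.8% in choroid plexus cells. In choroid plexus cells, 37.2% and 39.2% came from the stretch between mevalonate and farnesyl diphosphate, against 21.9% and 22.4% in astrocytes. Squalene and lanosterol genes were 17.3% and 17.7% of the sum in astrocytes, 21.8% and 23.7% of that of the neuron lineage, and 6.51% and 6.43% in microglia. In each of these contrasts the libraries lay within 2 percentage points of each other. In microglia, 54.8% and 53.4% came from the steps after lanosterol, of which Ebp alone gave 1769 and 1498 UMIs of the 6631 and 5723 in all.

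Within the neuron lineage the enzymes stood below astrocytes by very unequal amounts, so the pathway was not scaled down as a block. Astrocytes exceeded the neuron lineage 13.8 and 10.1 times for Msmo1 and 13.4 and 12.9 times for Tm7sf2. The fold was 4.54 and 4.31 for Mvd, 3.91 and 3.46 for Idi1, 3.64 and 3.68 for Dhcr7, and 3.46 and 3.54 for Sc5d. Cyp51, which acts just before Tm7sf2, differed by 1.45 and 1.25 times, Hmgcs1 by 2.02 and 1.77 times, Fdps by 1.88 and 1.64 times and Hsd17b7 by 1.54 and 1.39 times. Ebp, at 0.997 and 0.870 times, was about level, and Acat2 was lower in astrocytes, at 0.695 and 0.610 times. Pmvk (2.50 and 3.81 times) and Sqle (3.03 and 1.99 times) differed most between the libraries, so their place in this order is loose.

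**Figure D3:**
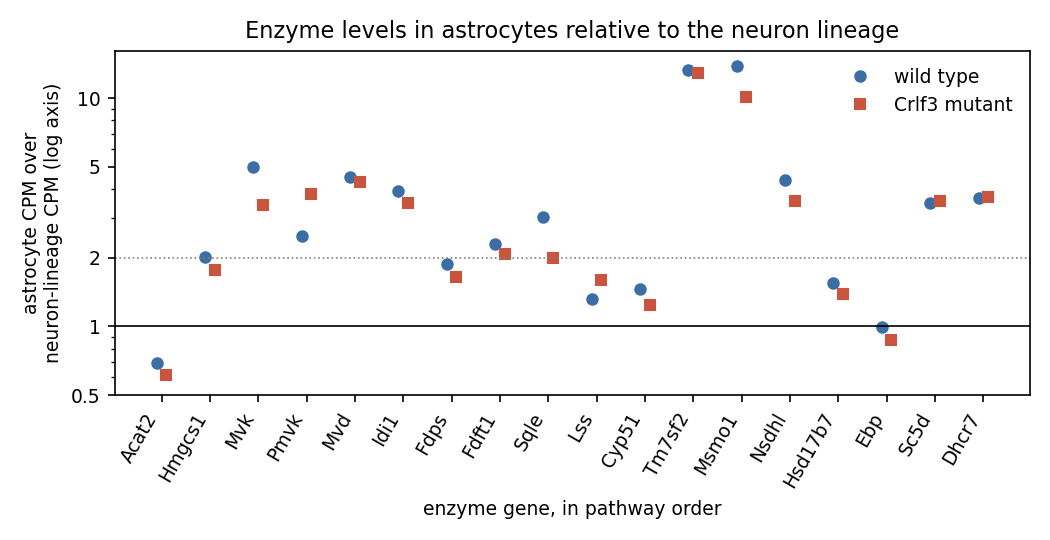
Astrocyte CPM divided by neuron-lineage CPM (log axis) for the 18 enzyme genes in pathway order, in the wild-type (circles) and the mutant library (squares), with a solid line at 1 and a dotted line at 2. Msmo1 and Tm7sf2 lie above 10 in both libraries, and Acat2 and Ebp lie below 1.

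As a description of how alike the patterns were, each gene was correlated with the mean of the other enzymes, as log2(CPM + 10), over the 12 combinations of class and library. These points share libraries and are not independent, so no p-value is given. Among the enzymes, Pearson's r lay between 0.76 and 0.97 for 17 genes, with Idi1 and Mvd highest, and was -0.71 for Ebp. Among the controllers it was 0.91 for Srebf1, 0.85 for Srebf2, 0.83 for Insig1, 0.77 for Scap and -0.43 for Insig2. In the transport group it was 0.70 for Soat1, 0.59 for Npc1, 0.17 for Stard4 and -0.07 for Npc2.

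Because most of these genes shared a pattern across classes, the bases just upstream of their start sites were searched for motifs. RefSeq promoter sequences (GRCm38.p6) were at hand for 22 of the 27 genes, in 30 windows of the 250 bases before an annotated start. The motifs, chosen after the levels had been seen, were TCACNCCAC, a form of the sterol regulatory element bound by SREBP, and CCAAT, the core bound by NF-Y, a factor known to work beside SREBP; both were searched on both strands. CCAAT stood in at least 1 window of 20 of the 22 genes (90.9%), all but Acat2 and Scap, against 37.5% of all 27025 genes and 42.4% of the 2899 other genes measured in astrocytes. Counted by window it stood in 21 of 30 (70.0%), against 33.8% of all 32851 windows. A gene with several windows had more chances of a match, and some windows lay within annotated exons. Dhcr7 had its matches only in a window in which all 250 bases were exonic. The windows of Idi1 and Tm7sf2 held 250 exonic bases and that of Msmo1 214. TCACNCCAC stood in 1 of the 22 genes, Hmgcs1 (4.55%), and in 1.22% of all genes. A match is a description of the letters in these windows and not a site of binding, and the 5-letter motif is common.

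The windows of 5 genes are shown to set genes of the astrocyte pattern beside genes that departed from it, 5′ to 3′ on the strand of the gene and up to the base before the start. They are those of Hmgcs1 (chr13:119690101-119690350, plus strand), Mvd (chr8:122443423-122443672, minus strand) and Sc5d (chr9:42264301-42264550, minus strand), then of Ebp (chrX:8193513-8193762, minus strand) and Insig2 (chr1:121332590-121332839, minus strand). Capitals mark CCAAT or its reverse complement ATTGG, and in Hmgcs1 also TCACCCCAC.
Hmgcs1: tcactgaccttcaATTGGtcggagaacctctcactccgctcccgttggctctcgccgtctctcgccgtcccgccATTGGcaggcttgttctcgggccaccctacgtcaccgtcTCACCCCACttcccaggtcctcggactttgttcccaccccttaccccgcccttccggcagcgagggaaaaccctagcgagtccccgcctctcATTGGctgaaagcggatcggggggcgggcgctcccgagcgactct
Mvd: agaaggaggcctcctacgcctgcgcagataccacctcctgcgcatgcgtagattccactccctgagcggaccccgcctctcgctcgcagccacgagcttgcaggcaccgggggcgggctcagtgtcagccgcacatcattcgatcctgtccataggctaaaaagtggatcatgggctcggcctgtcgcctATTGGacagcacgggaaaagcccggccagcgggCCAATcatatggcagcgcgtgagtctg
Sc5d: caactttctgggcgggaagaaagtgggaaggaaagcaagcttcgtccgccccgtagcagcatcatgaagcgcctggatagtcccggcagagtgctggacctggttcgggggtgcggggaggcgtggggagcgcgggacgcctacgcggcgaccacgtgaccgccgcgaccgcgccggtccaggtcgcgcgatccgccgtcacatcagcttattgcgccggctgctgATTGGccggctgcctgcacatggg
Ebp: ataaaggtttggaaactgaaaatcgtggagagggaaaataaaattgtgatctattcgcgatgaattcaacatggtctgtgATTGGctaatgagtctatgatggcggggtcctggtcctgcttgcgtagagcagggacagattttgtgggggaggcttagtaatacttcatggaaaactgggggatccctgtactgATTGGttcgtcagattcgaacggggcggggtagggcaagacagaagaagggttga
Insig2: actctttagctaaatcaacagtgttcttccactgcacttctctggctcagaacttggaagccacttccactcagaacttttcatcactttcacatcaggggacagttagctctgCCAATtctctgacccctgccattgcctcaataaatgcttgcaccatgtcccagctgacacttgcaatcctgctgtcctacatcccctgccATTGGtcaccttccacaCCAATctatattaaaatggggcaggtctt

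In Hmgcs1 the TCACNCCAC match began 137 bases before the start, and the CCAAT matches began 237, 176 and 45 bases before it. The Mvd window held CCAAT matches 60 and 27 bases before the start, and the Sc5d window 1, 24 bases before it. Ebp and Insig2, whose levels did not follow the other genes, held the same letters: Ebp 170 and 55 bases and Insig2 136, 46 and 29 bases before the start. The Insig2 window shown is 1 of 3, and the other 2, which overlap annotated exons, held no CCAAT match.

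The 5 genes of the SREBP control system were less uneven across classes than the enzymes, with a sum 4.52 times higher in astrocytes than in microglia in the mean of both libraries. Srebf1 (chromosome 11, 60199089 to 60222581, minus strand), the gene of the SREBP known mainly for fatty acid synthesis, stood at 229 CPM (1080 UMIs) in wild-type and 185 CPM (690 UMIs) in mutant astrocytes. It was at 31.0 and 35.3 CPM in the neuron lineage, 42.6 and 40.1 CPM in choroid plexus cells, 38.3 and 26.4 CPM in mural cells, 24.5 and 28.0 CPM in endothelial cells, and 16.2 and 17.8 CPM in microglia. Srebf2 (chromosome 15, 82147181 to 82205379, plus strand), the gene of the SREBP known as the main driver of cholesterol synthesis, had a flatter pattern, at 132 and 122 CPM in astrocytes, 82.9 and 102 CPM in the neuron lineage, 26.4 and 28.5 CPM in choroid plexus cells, 58.6 and 64.5 CPM in mural cells, 39.7 and 31.5 CPM in endothelial cells, and 13.52 and 12.97 CPM in microglia. Astrocytes exceeded the neuron lineage 7.38 and 5.25 times for Srebf1, but 1.59 and 1.20 times for Srebf2. In choroid plexus cells Srebf2 was lower than in mural cells, although the enzymes were higher there.

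Insig1 (chromosome 5, 28071363 to 28078662, plus strand), an SREBP target that restrains SCAP, stood at 123 and 124 CPM in astrocytes, 69.9 and 78.1 CPM in the neuron lineage, 13.5 and 11.6 CPM in choroid plexus cells, 27.1 and 23.5 CPM in mural cells, 31.5 and 27.8 CPM in endothelial cells, and 27.5 and 28.8 CPM in microglia. Its lowest class was thus the choroid plexus and not microglia. Insig2 (chromosome 1, 121304353 to 121332589, minus strand), its paralogue, was nearly flat, at 36.8 CPM in astrocytes of both libraries, 40.4 and 42.3 CPM in the neuron lineage, 51.5 and 39.6 CPM in choroid plexus cells, 74.4 and 76.2 CPM in mural cells, 43.6 and 48.3 CPM in endothelial cells, and 42.8 and 38.2 CPM in microglia. The mural levels rested on 33 and 52 UMIs, and the range of Insig2 over the classes, 2.05-fold, was the narrowest of the 27 genes. Scap, the gene of the escort protein, stood at 50.4 and 43.3 CPM in astrocytes, 19.5 and 17.9 CPM in the neuron lineage, 12.7 and 16.9 CPM in choroid plexus cells, 18.05 and 20.53 CPM in mural cells, 14.9 and 14.0 CPM in endothelial cells, and 21.1 and 20.4 CPM in microglia. Below astrocytes, microglia lay above endothelial cells in both libraries, with intervals that did not overlap (19.5 to 22.8 against 11.4 to 19.1 CPM in the wild type, 18.8 to 22.2 against 10.8 to 17.9 CPM in the mutant).

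Each of the 4 genes of transport and esterification had its own pattern. Stard4 (chromosome 18, 33199355 to 33213862, minus strand), a soluble carrier that moves sterol between membranes, was an endothelial gene here, at 76.8 and 69.8 CPM (310 and 319 UMIs) in endothelial cells. It was at 16.7 and 16.4 CPM in astrocytes, 9.37 and 24.4 CPM in the neuron lineage, 2.84 and 1.58 CPM in choroid plexus cells, 2.26 and 4.40 CPM in mural cells, and 1.86 and 2.12 CPM in microglia. In thinned cells a Stard4 UMI was found in 13.1% and 12.3% of endothelial cells, 2.29% and 3.81% of astrocytes, and 0.272% and 0.309% of microglia. Astrocyte markers summed to 857 and 779 CPM in the endothelial class, and Stard4 was lower in astrocytes themselves.

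Soat1 (chromosome 1, 156424525 to 156474331, minus strand), which esterifies cholesterol for storage in droplets, stood at 170 and 158 CPM in astrocytes, 52.6 and 47.8 CPM in microglia, 29.6 and 28.8 CPM in the neuron lineage, 24.7 and 19.5 CPM in choroid plexus cells, 18.05 and 21.99 CPM in mural cells, and 5.70 and 4.59 CPM in endothelial cells. Npc1 (chromosome 18, 12189692 to 12236400, minus strand), the membrane protein that releases cholesterol from lysosomes, was at 113 and 94.4 CPM in astrocytes, 57.5 and 56.8 CPM in microglia and at 11.3 to 38.4 CPM in the other classes. Npc2 (chromosome 12, 84754562 to 84773152, minus strand), its soluble lumenal partner, was instead highest in microglia, at 694 and 672 CPM (20845 and 17723 UMIs). It was at 363 and 367 CPM in choroid plexus cells, 309 and 320 CPM in the neuron lineage, 258 and 282 CPM in astrocytes, 200 and 194 CPM in endothelial cells, and 97.0 and 117 CPM in mural cells, and was the only member measured in all 6 classes. The partners of lysosomal release thus had different highest classes in both libraries, and microglia, lowest in synthesis, were highest for Npc2 and second for Npc1 and Soat1.

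**Figure D4:**
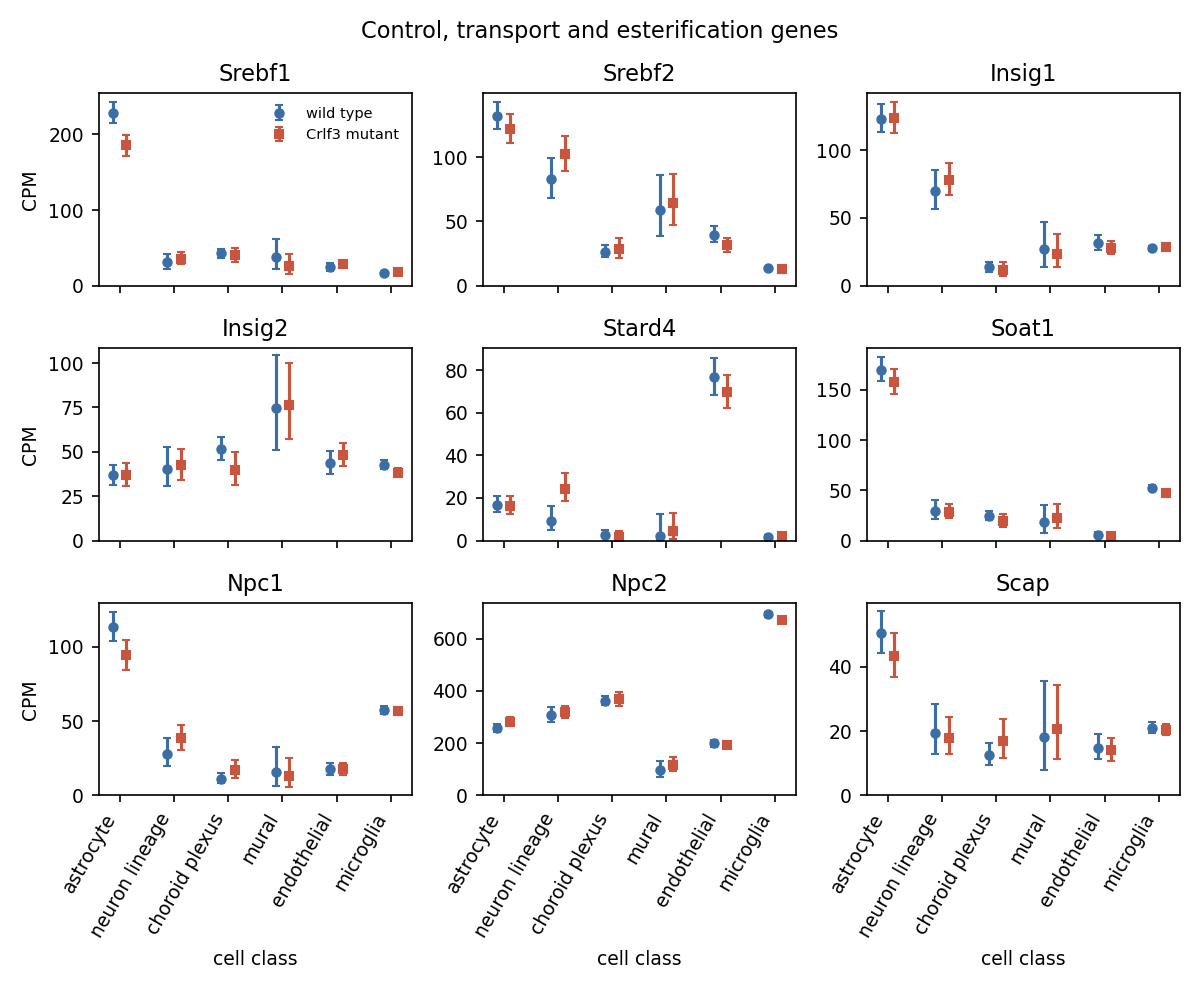
CPM of the control, transport and esterification genes in 6 cell classes of the wild-type (circles) and the mutant library (squares), with 95% counting intervals and a linear axis from 0 of its own in each panel. Srebf1, Soat1 and Npc1 are highest in astrocytes, Stard4 in endothelial cells at 76.8 and 69.8 CPM, Insig2 in mural cells and Npc2 in microglia at 694 and 672 CPM.

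Classes too small for the main comparison are given as values. Ependymal cells (48 and 16) had an enzyme sum of 544 and 479 CPM, with Srebf1 at 206 CPM in both libraries, near its astrocyte level, and Srebf2 at 121 and 97.1 CPM. Border macrophages (56 and 20) had an enzyme sum of 270 and 288 CPM, near that of microglia. Neural progenitors had 1355 and 1176 CPM and neuroblasts 1123 and 1413 CPM, so both branches of the neuron lineage lay above the choroid plexus.

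Between the genotypes the pathway differed little in astrocytes. The ratio of the enzyme sum, as log2 of mutant over wild type, was -0.00 (interval -0.04 to 0.03). For single genes, log2 ratios were taken with 10 CPM added to both levels. None of the 22 members measured in astrocytes was 1.5 times apart, where 0.275% of all measured genes were, and their median was -0.03 beside 0.01 for all 3634 measured genes. Of these 22 members, 15 lay below 0 and 7 above, whereas 52.1% of all measured genes lay above 0. The ends of the range were Srebf1, at 229 and 185 CPM (-0.29 on the log2 scale, interval -0.42 to -0.16), and Idi1, at 254 and 280 CPM (0.13, interval 0.02 to 0.25). Npc1, at 113 and 94.4 CPM (-0.24, interval -0.42 to -0.06), was the other member with an interval below 0, and Npc2 (0.12, interval 0.01 to 0.24) the other with one above it. Over all 27 members, measured or not, 8 were above 0 and 19 below. This count includes genes under the minimum, so the share of measured genes above 0 is not its background.

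Endothelial cells and microglia were close as well. The log2 ratio of the enzyme sum was -0.05 (interval -0.15 to 0.05) in endothelial cells and -0.02 (-0.08 to 0.03) in microglia, and none of the 4 members measured in each was 1.5 times apart (0.028% and 0.123% of all measured genes). In endothelial cells 3 of the 4 and in microglia all 4 lay below 0, whereas 52.5% and 56.3% of all measured genes lay above 0. In choroid plexus cells the log2 ratio of the sum was 0.13 (0.04 to 0.22), with none of 8 members 1.5 times apart (0.967%) and a median of 0.09 beside 0.07 for all 2585 measured genes, so the members lay near the median of all genes in the class. Of these 8, 6 lay above 0, where 68.9% of all measured genes did. In mural cells, on 172 and 305 enzyme UMIs, the log2 ratio of the sum was 0.20 (-0.07 to 0.48), with none of 4 members 1.5 times apart (5.54%). All 4 lay above 0, where 56.6% of all measured genes did.

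In the neuron lineage the enzyme sums of 1195 and 1346 CPM differed 1.13 times, with the mutant library higher (0.17 on the log2 scale, interval 0.09 to 0.26). None of the 11 measured members was 1.5 times apart, where 0.866% of all measured genes were. All 11 lay above 0, with a median of 0.16, whereas 49.4% of all 4505 measured genes lay above 0 and their median was -0.00. The highest were Sqle, at 72.1 and 101 CPM (0.44, interval 0.13 to 0.75), and Msmo1, at 69.9 and 95.5 CPM (0.40, interval 0.09 to 0.72), and the lowest was Npc2, at 309 and 320 CPM (0.05). Over all 27 members, measured or not, 20 were above 0 and 7 below, with a median of 0.13. For this count no like share of all genes is given. Pmvk, at 47.6 and 31.4 CPM and so just under the minimum, had the lowest ratio (-0.48, interval -0.87 to -0.08). Stard4, also under it, rested on 13 UMIs in the wild-type and 56 UMIs in the mutant library, at 9.37 and 24.4 CPM (0.83, interval 0.32 to 1.28).

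Within the lineage, the level was higher in the mutant library in neuroblasts and lower in progenitors. Wild-type neuroblasts held 1123 CPM (1056 to 1192) of enzyme transcripts and mutant neuroblasts 1413 CPM (1356 to 1472), 1.26 times as much (0.33 on the log2 scale, interval 0.23 to 0.44). Neural progenitors, on 32 and 41 cells, held 1355 CPM (1247 to 1470) and 1176 CPM (1095 to 1262), a ratio of 0.868 (interval 0.778 to 0.968). The difference between these 2 ratios was not tested. Of 12 members measured in neuroblasts, 1 was 1.5 times apart, where 1.64% of all measured genes were. It was Msmo1, at 55.3 CPM (53 UMIs) in the wild-type and 97.6 CPM (160 UMIs) in the mutant library (0.72 on the log2 scale, interval 0.32 to 1.12). With neuroblasts taken from graph clusters 0 of 12 members were apart. The count was 3 of 7 in thinned cells, 3 of 14 with per-cell means and 3 of 12 in cells with Y transcripts alone. The share of all measured genes under these alternatives is not given here, so these counts describe the members only. Hmgcs1 stood at 184 and 255 CPM (0.45, interval 0.21 to 0.70), Fdft1 at 159 and 218 CPM (0.43, interval 0.17 to 0.70), Fdps at 109 and 151 CPM (0.44, interval 0.13 to 0.76) and Srebf2 at 76.2 and 109 CPM (0.47, interval 0.11 to 0.83). Cyp51, at 118 and 130 CPM (0.13), and Npc2, at 338 and 348 CPM (0.04), were close between the libraries. Pmvk was lower in the mutant library, at 54.3 and 36.0 CPM (-0.48, interval -0.94 to -0.02), so 11 of the 12 were above 0, where 47.3% of all measured genes were. Their median was 0.42 beside -0.01 for all 4561 measured genes. Over all 27 members, measured or not, 21 were above 0 with a median of 0.21, again without a like share of all genes.

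**Figure D5:**
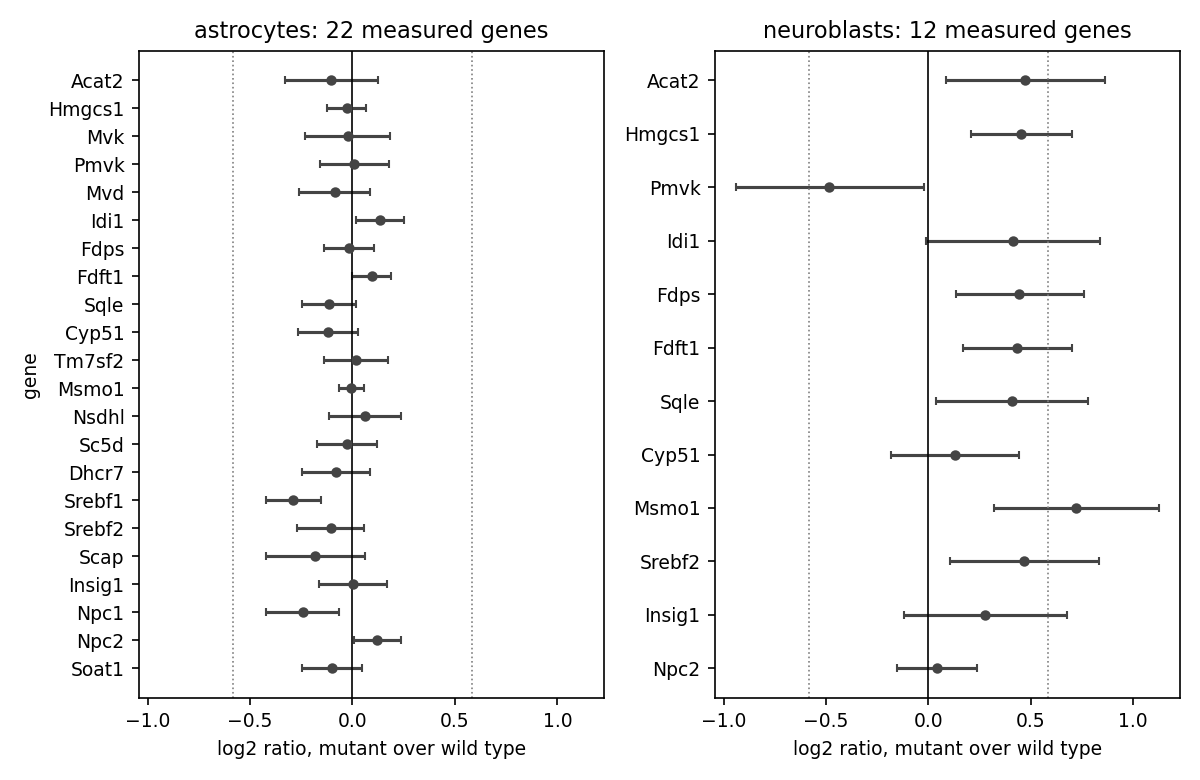
Log2 ratio of mutant over wild-type CPM, each with 10 CPM added, for the members measured in astrocytes (left, 22 genes) and in neuroblasts (right, 12 genes), with 95% counting intervals and dotted lines at 1.5 times apart. Astrocyte points lie between -0.29 and 0.13, and 11 of the 12 neuroblast points lie above 0, with Msmo1 at 0.72 and Pmvk at -0.48.

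The difference in neuroblast sums was not one of the typical cell. The median neuroblast had 998 CPM of enzyme transcripts when wild-type and 991 CPM when mutant. The upper cells differed, with 1354 and 1707 CPM at the 75th percentile and 2119 and 2747 CPM at the 90th. Neuroblasts with a Dlx UMI, of the inhibitory neuron lineage, had higher enzyme sums (1637 and 1790 CPM, 20 and 34 cells) than those without (1052 and 1297 CPM, 100 and 124 cells), and were 16.7% of wild-type and 21.5% of mutant neuroblasts. Without Dlx-positive cells the ratio was 1.23 (interval 1.14 to 1.34), so it was close to that in all neuroblasts, again with similar medians of 972 and 978 CPM. In neuroblasts, progenitor markers summed to 829 and 1187 CPM, and median depth was 8351 and 10382 UMIs per cell. Of 6 immediate early genes measured in neuroblasts, 5 had a log2 ratio below 0 (median -0.19), with Jun lowest at 477 and 347 CPM (-0.45, interval -0.63 to -0.27). Of 4 measured heat shock genes, 3 lay above 0 (median 0.07), with Dnajb1 highest at 60.6 and 89.7 CPM (0.50, interval 0.11 to 0.90). The part of these markers and stress genes and of depth in the difference was not tested. After thinning to 2000 UMIs the log2 ratio was 0.45.

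Sex could be followed across the pools through Xist and Y-linked transcripts. Among neuroblasts holding Xist alone the enzyme sum was 1246 and 1507 CPM, and among those holding Y transcripts alone 1097 and 1409 CPM, higher in the mutant library in both. In astrocytes these sums were 3567 and 3366 CPM and 3790 and 4046 CPM, so the small differences there had opposite signs. Of the choroid plexus cells, 3 wild-type and 0 mutant cells held Xist alone, whereas 173 and 53 held Y transcripts alone. In that class the cell class and the sex of the animals cannot be told apart. When neuroblasts were taken from graph clusters of both libraries in place of marker gates, the log2 ratio was 0.15, in the same direction.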

How the data were processed

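Per the labels' protocols, the authors dissociated pooled hippocampi, removed debris and myelin, sorted live cells and prepared 5′ libraries. The authors made the count matrices with Cell Ranger 6.1.1 against mm10-2020-A, per the labels' protocols and the file headers. Partek is listed without a role in the submitters' processing notes. The deposited values are raw UMI counts per gene and barcode, with no normalization, for 7713 wild-type and 5720 mutant barcodes. How reads of near-identical genes were counted is not given in the sources used here.

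Barcodes passed (7246 and 5353) with at least 500 genes, 1000 UMIs and no more than 10% of UMIs from mitochondrial genes, and 137 and 78 doublets called by Scrublet (scanpy 1.11.5) were removed. Doublets it did not call remain. A cell joined the class of which it showed at least 0.4 of the markers, with a lead of 0.2 over the next class; this rule was set after the files were read. Cells that met it for no class (249 and 147) were left out. UMIs were summed per class and library as CPM, with exact Poisson, Clopper-Pearson and conditional binomial intervals, and genotype ratios of single genes used a pseudocount of 10 CPM. Genes were measured at 50 CPM and 30 UMIs. Full values are given for the 10 measured members with the widest range and for the controllers, and other members are given by range. Alternatives were another filter, kept doublets, clusters (leidenalg 0.10.2), thinning, per-cell means, TMM (edgeR 4.0.16), subsets by sex transcripts and other minimums. The ratios were tested on simulated data. The members and lists were chosen with earlier results of these data known.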

Additional observations from a re-analysis of the deposited data

How the results depend on the processing

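The enzyme sum put astrocytes, the neuron lineage and choroid plexus cells first, in this order, under each alternative that gave a value, while mural and endothelial cells changed places in Y-transcript cells. With the geometric mean of CPM + 10 in place of the sum, classes stood 7.50 (astrocytes), 3.19 (neuron lineage), 1.89 (choroid plexus), 1.42 (mural) and 1.38 (endothelial) times above microglia. The astrocyte fold was 15.6 in Xist cells and 18.3 in Y-transcript cells, and that of the neuron lineage 5.45 in thinned cells and 6.08 in Y-transcript cells. The choroid plexus fold was 4.05 with Ttr left out of the totals, an alternative chosen after seeing the data.

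Of the genotype log2 ratios of the enzyme sum, that of astrocytes was 0.044 with graph clusters, -0.038 in thinned cells, -0.084 in Xist cells and 0.094 in Y-transcript cells. Mural cells gave -0.15 with clusters and 0.60 in Y-transcript cells, endothelial cells 0.10 in Y-transcript cells, and neuroblasts 0.15 with clusters and 0.45 thinned. Medians of measured members in astrocytes were -0.058 with the stricter filter, -0.12 thinned, -0.065 with per-cell means and -0.12 in Xist cells. In the neuron lineage they were 0.34 thinned and 0.072 in Y-transcript cells, and in neuroblasts 0.14 with clusters, 0.57 thinned, 0.23 with per-cell means, 0.20 in Xist cells and 0.21 with a minimum of 10 CPM and 10 UMIs. The choroid plexus median was 0 thinned and turned to -0.066 in Y-transcript cells, the endothelial median was 0.12 in Y-transcript cells, and the microglial median -0.088 thinned and -0.019 in Xist cells. The cause was not tested for any of these.

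Members 1.5 times apart in the neuron lineage were 1 of 8 thinned, 1 of 13 with per-cell means, 1 of 12 in Xist cells and 1 of 12 in Y-transcript cells. In choroid plexus cells 1 was apart when thinned, and in mural cells 1 with clusters and 1 with per-cell means. In neuroblasts 0 were apart with clusters, and 3 thinned, 3 with per-cell means and 3 in Y-transcript cells. Members at least 2 times higher than in microglia were 6 for the neuron lineage when thinned, 0 for mural cells thinned, in Xist cells and in Y-transcript cells, and 1 for endothelial cells with clusters and in Xist cells. The other 246 values stayed within counting error or 1.5 times. Choroid plexus Xist cells were too few for a value, and mural Xist cells had no measured member. Shares of all measured genes under the alternatives are not given, so the counts of members above have no background. In mural cells, 172 and 305 enzyme UMIs left an interval of -0.07 to 0.48 for the genotype log2 ratio of the sum. No paired analysis was possible because each genotype had 1 library.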

Other observations

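Genes of neighbouring lipid pathways, from lists written beside the cholesterol set, were read in the same classes, and the genes named here were chosen after their values had been seen. Fatty acid genes shared the astrocyte pattern in part. Scd2, a desaturase, stood at 875 and 822 CPM in wild-type and mutant astrocytes, 198 and 195 CPM in the neuron lineage and 24.4 and 23.2 CPM in microglia, and Fads2, of polyunsaturated fatty acid synthesis, at 620 and 571 CPM in astrocytes and 1.60 and 2.05 CPM in microglia. Both were also high in ependymal cells, Scd2 at 544 and 540 CPM and Fads2 at 353 and 243 CPM. Me1, a source of NADPH, was highest in choroid plexus cells, at 143 and 158 CPM, against 109 and 101 CPM in astrocytes. Of 12 fatty acid genes measured in astrocytes, 11 had a log2 genotype ratio below 0, with a median of -0.11, the lowest being Scd1 at -0.34, whereas 52.1% of all 3634 measured genes lay above 0 with a median of 0.01. None of the 12 was 1.5 times apart, where 0.275% of all measured genes were.

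In microglia, where synthesis was lowest, the cholesterol exporter gene Abca1 stood at 147 and 140 CPM, above astrocytes at 109 and 99.7 CPM. Mylip, whose product removes lipoprotein receptors, stood at 402 and 424 CPM in microglia against 4.45 and 6.45 CPM in astrocytes. The oxysterol enzyme genes Cyp7b1, at 163 and 181 CPM, and Cyp46a1, known from neurons, at 69.4 and 75.3 CPM, were highest in astrocytes, and Cyp46a1 was at 2.16 and 2.62 CPM in the neuron lineage. Lipa, which frees cholesterol from esters in lysosomes, was highest in endothelial cells, at 199 and 201 CPM, the class with the lowest Soat1 and the highest Stard4. Lbr, whose protein also has sterol reductase activity like that of Tm7sf2, was instead low in astrocytes, with 5.72 and 9.95 CPM in astrocytes, 38.9 and 59.3 CPM in the neuron lineage and 78.6 and 71.8 CPM in endothelial cells.

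Of 7157 other genes compared over the 12 combinations of class and library, the 8 closest in pattern to the mean of the enzymes were Scd2 (Pearson's r 0.996), Cs (0.994), Agpat5 (0.988), Tafa5 (0.985), Sccpdh (0.985), Hdac4 (0.984), Dclk1 (0.981) and Gldc (0.979). The points share libraries, so these values only describe likeness. Among the sterol transfer genes, Osbp was higher in the mutant library in neuroblasts, at 25.1 and 58.0 CPM (log2 ratio 0.96, interval 0.45 to 1.45), and stood at 37.7 and 59.3 CPM in endothelial cells (0.54, interval 0.30 to 0.78).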
